A study of Mus musculus with 9 samples.

Results

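The Ms4a family encodes small surface and intracellular proteins that cross the membrane with 4 segments. Of its genes, 8 were followed here in dendritic cells (DCs) of mouse spleen: Ms4a4a, Ms4a4b, Ms4a4c, Ms4a6b, Ms4a6c, Ms4a6d, Ms4a7 and Ms4a8a. They were taken by symbol from a table of 54532 genes, and the set was selected on the FPKM of Ms4a4a, which was raised in every library of T-DCs. RNA was sequenced from 9 sorted samples in 3 groups of 3. N-mDCs were mature conventional DCs from the spleen of normal mice. T-mDCs were mature conventional DCs from the spleen of mice with T cell acute lymphoblastic leukemia (T-ALL), and T-DCs were CD11c+MHCIIlo cells from such mice. The study used young adult female mice of C57BL/6J or C57B6.SJL background. The leukemia was driven by a retrovirus carrying the intracellular domain of Notch1 with GFP, and sorted GFP+ leukemia cells were transplanted into recipients without irradiation, so the hosts kept their own DCs. T-DCs were enriched on CD11c beads and sorted for low surface MHCII, so a low MHCII level was part of how they were defined. Nothing states whether the 3 samples of a group came from separate mice or pools, and p-values then measure only the spread between these samples.

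Members of the family are best known as markers and as partners of immune receptors. Ms4a1 is CD20 of B cells, Ms4a2 is the beta chain of the high-affinity IgE receptor of mast cells and basophils, and Ms4a3 marks granulocyte and monocyte progenitors. Ms4a4a is a macrophage surface protein that associates with Dectin-1, the beta-glucan receptor encoded by Clec7a, and Ms4a8a was described in alternatively activated macrophages. Ms4a7 is a macrophage and microglia gene, Ms4a4b is a T cell protein that associates with the receptor GITR (Tnfrsf18), and Ms4a6d pairs with the macrophage receptor Vsig4. Ms4a4c, Ms4a6b and Ms4a6c are myeloid and lymphoid members with less settled roles.

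The 8 members lie on chromosome 19 within 537 kb (GRCm38, from the start of Ms4a8a at 11067471 to the end of Ms4a6d at 11604849), all as protein-coding genes. Ms4a4a (11375523 to 11392790, plus strand) is followed on the same strand by Ms4a4c (11404770 to 11427246), Ms4a4b (11443553 to 11463549), Ms4a6c (11469366 to 11482192) and Ms4a6b (11516512 to 11531256). The 250 bases before the start site in RefSeq (GRCm38.p6) are shown for these 5 genes. Ms4a4a and Ms4a4c, side by side, differed between the groups in opposite directions, and the others follow them on the same strand. Capitals mark the longest run shared within the Ms4a4c and Ms4a4b pair and within the Ms4a6c and Ms4a6b pair, and in Ms4a4a a match to an NF-kB motif (GGGA, any 2 bases and TTCC).
Ms4a4a, chr19:11375238-11375487, plus strand: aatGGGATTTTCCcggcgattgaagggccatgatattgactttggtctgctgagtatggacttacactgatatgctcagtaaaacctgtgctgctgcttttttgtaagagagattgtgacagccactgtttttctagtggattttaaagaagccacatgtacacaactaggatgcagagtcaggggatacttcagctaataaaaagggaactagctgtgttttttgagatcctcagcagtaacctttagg
Ms4a4c, chr19:11407411-11407660, plus strand: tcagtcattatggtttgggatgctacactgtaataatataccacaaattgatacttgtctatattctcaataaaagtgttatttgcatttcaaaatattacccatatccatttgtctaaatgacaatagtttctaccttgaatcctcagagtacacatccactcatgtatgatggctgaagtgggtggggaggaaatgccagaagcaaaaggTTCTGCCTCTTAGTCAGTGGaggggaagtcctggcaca
Ms4a4b, chr19:11443308-11443557, plus strand: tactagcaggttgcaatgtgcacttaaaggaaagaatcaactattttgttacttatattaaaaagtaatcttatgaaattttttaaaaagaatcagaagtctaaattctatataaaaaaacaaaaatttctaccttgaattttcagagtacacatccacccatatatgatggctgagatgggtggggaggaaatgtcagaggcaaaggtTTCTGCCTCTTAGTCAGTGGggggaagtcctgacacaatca
Ms4a6c, chr19:11469118-11469367, plus strand: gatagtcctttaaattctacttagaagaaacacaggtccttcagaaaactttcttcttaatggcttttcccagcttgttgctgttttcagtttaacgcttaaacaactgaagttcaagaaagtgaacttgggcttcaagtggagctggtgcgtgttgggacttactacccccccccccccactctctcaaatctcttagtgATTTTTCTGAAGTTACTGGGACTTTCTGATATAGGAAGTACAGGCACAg
Ms4a6b, chr19:11518309-11518558, plus strand: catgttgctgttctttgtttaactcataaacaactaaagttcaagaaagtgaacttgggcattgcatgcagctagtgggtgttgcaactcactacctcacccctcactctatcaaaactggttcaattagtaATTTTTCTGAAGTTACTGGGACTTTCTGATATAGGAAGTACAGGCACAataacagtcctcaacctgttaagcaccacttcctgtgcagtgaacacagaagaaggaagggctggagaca

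Of the 8 members, 7 had such a window, and Ms4a6d had none. The RefSeq starts of Ms4a4c and Ms4a6b lie inside the spans that the expression table gives for these genes. The Ms4a4c and Ms4a4b windows shared 68.8% of their aligned positions and a run of 20 bases. The Ms4a6c and Ms4a6b windows shared a run of 48 bases. In the other 19 pairs of member windows the longest shared run was between 7 and 9 bases. On either strand, 6 motifs were searched. The NF-kB letters were in the Ms4a4a window as GGGATTTTCC, at positions -247 to -238 from its start, and in no other member window, and 1.21% of 32851 mouse windows of this length held them. The PU.1 core letters GAGGAA began at position -61 of Ms4a4c and -64 of Ms4a4b, where 23.3% of all windows held them. The C/EBP letters TTNNGNAA were present in all 8 member windows (Ms4a7 has 2 start sites) and in 36.8% of all windows. The AP-1 letters TGANTCA were in an Ms4a7 and the Ms4a8a window and in 6.75% of all windows, and no member window held GAGGAAGT (2.44% of all) or the interferon element (GAAA, any 2 bases and GAAA, 2.98% of all). These are matches of letters only.

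The values were FPKM, the reads on a gene per kilobase of its length, scaled by library, so levels can be compared between genes. Reads on genes ranged from 15360815 to 18440913 per library, and 1 read per kilobase stood for 0.0517 to 0.0659 FPKM. All 8 members were among the 12746 genes that reached 1 FPKM in 3 or more samples and were tested on log2(FPKM + 1) with limma. Markers of other cell types were measured in the same libraries, and their part in the results was not tested. Summed erythroid marker FPKM was 57937 and 41950 in T-DC 2 and 3 against 603 in T-DC 1, and summed neutrophil marker FPKM was 4235 and 1485 against 13.4. T-mDC 2 and 3 were the closest pair within a group by far (chi-square per gene of 1.85 over genes with 20 to 199 reads, against at least 8.11 in the other pairs), yet differed by more than counting noise, and they were kept as separate samples. T-mDC 1 stood apart from them. Of 12 DC markers, 9 were called lower in T-DCs against N-mDCs (limma), and all 12 estimates were lower. Among those called were the MHCII genes H2-Ab1 and Cd74, and T-DCs were sorted for low MHCII, so the counts are no check of the labels. Zbtb46, a transcription factor of conventional DCs, was at 1.84 to 3.42 FPKM in T-DCs and 11.7 to 16.0 in N-mDCs. Itgax (CD11c) was at 43.0 to 152 FPKM in T-DCs, 158 to 230 in N-mDCs and 159 to 167 in T-mDCs. Its log2 differences in T-DCs were -1.09 against N-mDCs (limma adjusted p = 0.0926) and -0.96 against T-mDCs (limma adjusted p = 0.149). In such bulk samples, fewer cells of a type and less RNA per cell cannot be told apart.

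Ms4a4a was the member with the widest differences. Its FPKM was 7.27, 7.06 and 23.5 in N-mDC 1 to 3, 297, 199 and 115 in T-DC 1 to 3, and 73.1, 8.11 and 8.13 in T-mDC 1 to 3. Every T-DC library was above every library of mature DCs, and T-mDC 1 was the only mature sample between the groups. These are the values for which the family was chosen, and they carry no test here. The mean was 203 ± 91.3 FPKM in T-DCs, 12.6 ± 9.44 in N-mDCs and 29.8 ± 37.5 in T-mDCs (SD, n = 3), a ratio of means of 16.1 over N-mDCs and 6.83 over T-mDCs. On the log2(FPKM + 1) scale the difference was 4.01 ± 0.83 (SE) against N-mDCs, with 3.38 ± 0.83 against T-mDCs. Without T-mDC 1 the second difference was 4.38. The lowest libraries, N-mDC 1 and 2, still held 95 reads each on the gene and the highest 4449, so counting error was small beside the spread between samples.

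**Figure D1:**
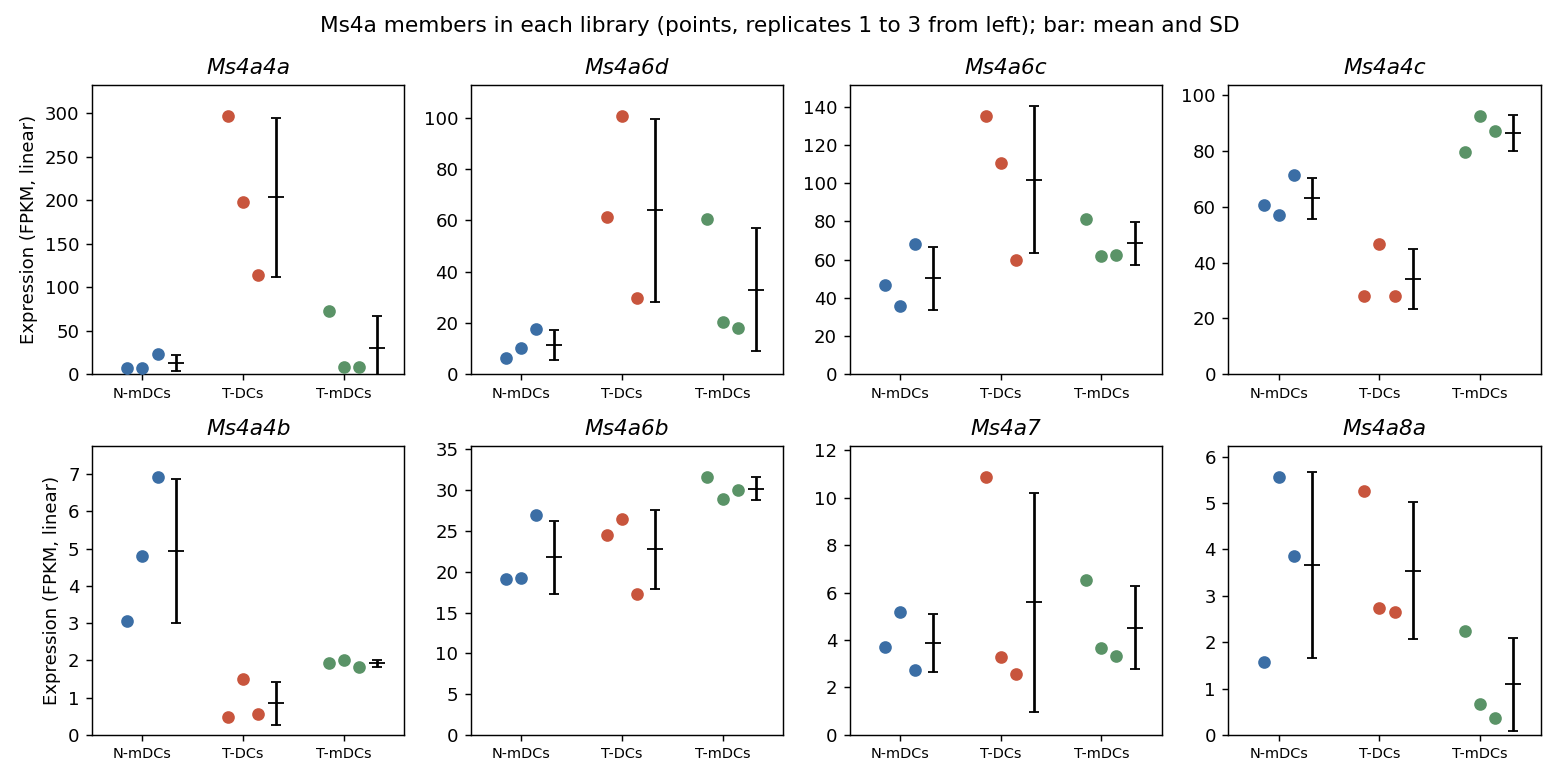
FPKM (linear axes from 0, which cut the SD bar of Ms4a4a in T-mDCs) of the 8 members in 3 N-mDC, 3 T-DC and 3 T-mDC samples; points are samples in replicate order from the left and bars are the mean and SD. Ms4a4a in T-DCs (115 to 297 FPKM) lies above all mature DC samples (7.06 to 73.1), whereas Ms4a4c in T-DCs (28.0 to 46.7) lies below all of them (57.2 to 92.6).

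Ms4a6d and Ms4a6c leaned the same way as Ms4a4a but with smaller differences. Ms4a6d FPKM was 6.12, 10.2 and 17.8 in N-mDCs, 61.4, 101 and 29.6 in T-DCs and 60.5, 20.2 and 17.9 in T-mDCs. T-DCs did not overlap N-mDCs, but T-mDC 1 was at the level of T-DC 1 and above T-DC 3. The log2 difference was 2.34 ± 0.59 against N-mDCs, with 0.99 ± 0.59 against T-mDCs. Ms4a6c FPKM was 46.9, 35.8 and 68.0 in N-mDCs, 135, 111 and 59.6 in T-DCs and 81.4, 61.9 and 62.1 in T-mDCs. T-DC 3 fell within the range of N-mDCs and below all T-mDCs, so the groups overlapped in both comparisons, with log2 differences of 0.97 ± 0.34 and 0.50 ± 0.34.

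Ms4a4c and Ms4a4b were at their lowest in T-DCs. Ms4a4c, which lies directly downstream of Ms4a4a, was at 60.7, 57.2 and 71.4 FPKM in N-mDCs, 28.1, 46.7 and 28.0 in T-DCs and 79.5, 92.6 and 87.3 in T-mDCs. The 3 groups did not overlap, with T-DCs the lowest and T-mDCs the highest, and the log2 difference of T-DCs was -0.90 ± 0.23 against N-mDCs, with -1.35 ± 0.23 against T-mDCs. Ms4a4b was at 3.07, 4.805 and 6.93 FPKM in N-mDCs, 0.476, 1.505 and 0.549 in T-DCs and 1.92, 2.01 and 1.82 in T-mDCs. Its order was N-mDCs, T-mDCs and T-DCs without overlap, with log2 differences of -1.68 ± 0.29 and -0.71 ± 0.29, and T-DC 1 and 3 held only 45 and 44 reads. Markers of NK cells, with which Ms4a4b shares lymphoid expression, had a summed FPKM of 145 to 227 in N-mDCs, against 8.30 to 35.8 in T-DCs with 23.2 to 34.6 in T-mDCs, and T-lineage markers summed to 158 to 204, 27.1 to 96.5 and 69.0 to 126. Most of the NK sum in T-mDC 1 to 3 came from the marker Klrd1, at 21.7, 31.6 and 29.2 FPKM. Klrd1 was lower in T-DC 1 to 3, at 7.98, 6.20 and 2.47 FPKM. Among the 8 tested NK markers, 6 estimates were higher in T-DCs than in T-mDCs, while those of Klrd1 and Ncr1 were lower. Much of the T-lineage sum was Cd8a and Cd4, which DCs also express, at 91.9 and 14.2 FPKM in T-mDC 2. Cd3g, a chain of the T cell receptor complex, was at 0.763, 2.34 and 2.46 FPKM in N-mDCs. It was at 0.0512, 3.06 and 0.685 in T-DCs and 0.0324, 0.443 and 0.349 in T-mDCs. Cd3e, another chain, was at 0.0684, 1.28 and 0.0646 in T-DCs and 0.0779, 0.317 and 0.280 in T-mDCs. Of 11 tested T-lineage markers, 8 had a higher estimate in T-DCs than in T-mDCs and 3 a lower one. The part of NK or T-lineage cells in the Ms4a4b values was not tested.

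Ms4a6b, Ms4a7 and Ms4a8a had log2 differences of 0.02 to 0.25 between T-DCs and N-mDCs. Ms4a6b was the steadiest member, at 19.1, 19.2 and 27.0 FPKM in N-mDCs, 24.5, 26.4 and 17.2 in T-DCs and 31.7, 28.9 and 30.03 in T-mDCs. T-mDCs lay above both other groups, and the log2 difference of T-DCs was 0.06 ± 0.21 against N-mDCs, with -0.42 ± 0.21 against T-mDCs. Ms4a7 was at 3.71, 5.19 and 2.75 FPKM in N-mDCs, 10.9, 3.27 and 2.59 in T-DCs and 6.55, 3.68 and 3.35 in T-mDCs. Here 1 library stood high in each leukemic group, T-DC 1 and T-mDC 1, and the groups overlapped. Ms4a8a was at 1.57, 5.57 and 3.87 FPKM in N-mDCs, 5.26, 2.73 and 2.64 in T-DCs and 2.24, 0.663 and 0.363 in T-mDCs. All T-DC libraries were above all T-mDC libraries, with a log2 difference of 1.18 ± 0.43, and T-DCs overlapped N-mDCs (0.02 ± 0.43). For Ms4a6b, Ms4a7 and Ms4a8a the sign of the difference between T-DCs and N-mDCs changed in some of the alternatives tried.

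As a list, the members split in direction. Against N-mDCs, T-DCs did not overlap for 4 members, Ms4a4a and Ms4a6d higher and Ms4a4c and Ms4a4b lower, where 32.4% of all tested genes did not overlap (16.0% higher and 16.4% lower). Against T-mDCs, 5 members did not overlap, Ms4a4a and Ms4a8a higher and Ms4a4c, Ms4a4b and Ms4a6b lower, where 34.9% of all tested genes did not (16.8% higher and 18.1% lower). These counts are on the contrasts used to choose the family, and nothing is read from them. The median log2 difference over the 8 members was 0.15 against N-mDCs but 0.29 against T-mDCs, beside 0.05 and 0.07 over all tested genes. Over all genes, 16.4% and 14.2% were called at an adjusted p under 0.05 in these comparisons. The T-DC samples stand in both comparisons, so they are not independent of each other.

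The make-up of Ms4a expression is given as a description, since it rests on the Ms4a4a level for which the family was chosen and a larger Ms4a4a share lowers the shares of the others. Summed over the members, FPKM was 145 to 221 in N-mDCs, against 255 to 563 in T-DCs with 211 to 337 in T-mDCs. Ms4a4a made up 40.5% to 52.8% of this sum in T-DCs, 4.87% to 10.6% in N-mDCs and 3.72% to 21.7% in T-mDCs. Ms4a4c made up 4.99% to 10.98% in T-DCs, against 32.3% to 40.9% in N-mDCs and 23.6% to 42.5% in T-mDCs. The share of Ms4a6c was 22.5% to 24.0% in T-DCs and 24.2% to 31.6% over the mature DC libraries, although its mean FPKM in T-DCs was 2.03 times that in N-mDCs. Ms4a4a was the highest member in every T-DC library, Ms4a4c was the highest in all N-mDCs and in T-mDC 2 and 3, and Ms4a6c was the highest in T-mDC 1.

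**Figure D2:**
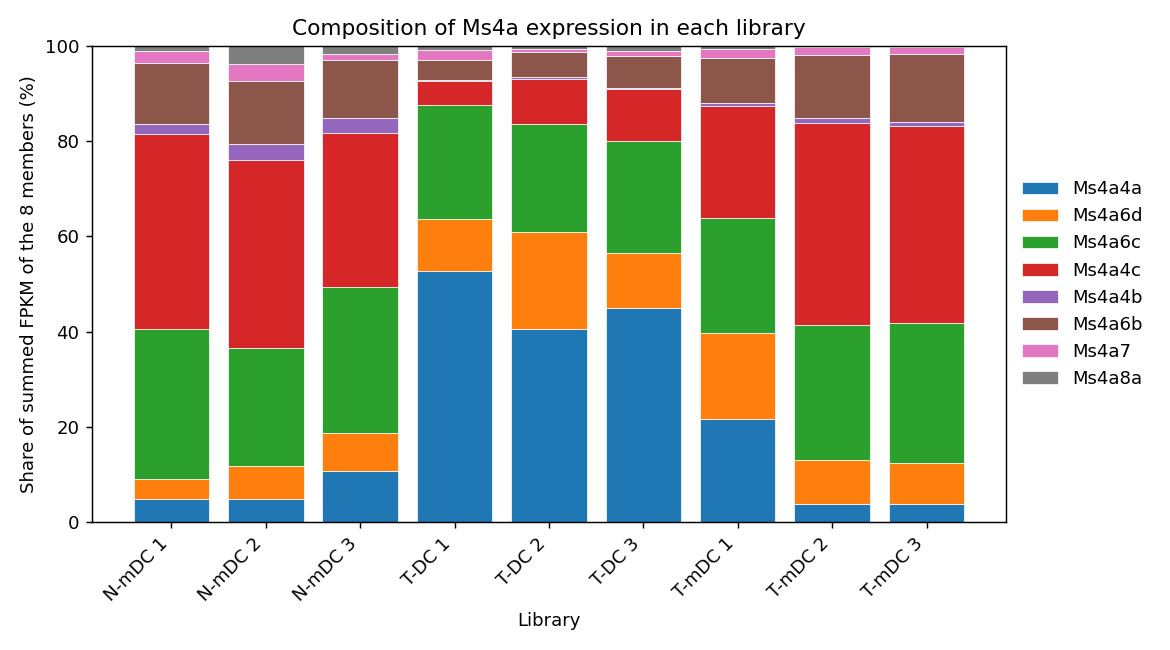
Share (%) of the summed FPKM of the 8 members taken by each member, 1 bar per library. Ms4a4a takes 40.5% to 52.8% in T-DCs and at most 21.7% in mature DC libraries, and Ms4a4c takes at most 10.98% in T-DCs and at least 23.6% in the others.

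The order of mean levels was Ms4a4c, Ms4a6c, Ms4a6b, Ms4a4a, Ms4a6d, Ms4a4b, Ms4a7 and Ms4a8a in N-mDCs. Neighbours in this order overlapped between samples except Ms4a6c and Ms4a6b. In T-DCs the order was Ms4a4a, Ms4a6c, Ms4a6d, Ms4a4c, Ms4a6b, Ms4a7, Ms4a8a and Ms4a4b. There, Ms4a4c did not overlap Ms4a6b, Ms4a6b did not overlap Ms4a7, Ms4a8a did not overlap Ms4a4b, and the other neighbours overlapped. In T-mDCs it was Ms4a4c, Ms4a6c, Ms4a6d, Ms4a6b, Ms4a4a, Ms4a7, Ms4a4b and Ms4a8a, where Ms4a6c and Ms4a6d, Ms4a4a and Ms4a7, and Ms4a7 and Ms4a4b did not overlap.

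Mature DCs of leukemic and normal spleen were compared to ask whether the members differed without the MHCII sort of T-DCs, a contrast that did not serve to choose the family. No member passed the test. Over all genes 2.21% were called in either direction (limma, adjusted p under 0.05), and of the 8 members 0 were called, with 3 at an unadjusted p under 0.05, which 16.7% of all tested genes reached. Limma voom on the reads also called 0. The estimates were 6 higher and 2 lower in T-mDCs, with a median log2 difference of 0.46 beside 0.03 over all tested genes. Ms4a6d had a log2 difference of 1.35 ± 0.59 (limma adjusted p = 0.297), Ms4a6c 0.48 ± 0.34 (limma adjusted p = 0.523), Ms4a6b 0.47 ± 0.21 (limma adjusted p = 0.312) and Ms4a4c 0.45 ± 0.23 (limma adjusted p = 0.355). Ms4a8a had -1.16 ± 0.43 (limma adjusted p = 0.226) and Ms4a4b -0.97 ± 0.29 (limma adjusted p = 0.130). Ms4a7 had 0.17 ± 0.45 (limma adjusted p = 0.884). The groups did not overlap for 4 members, Ms4a4c, Ms4a6b and Ms4a6d higher and Ms4a4b lower, beside 35.0% of all tested genes (19.3% higher and 15.7% lower). For Ms4a6d the gap was 17.9 against 17.8 FPKM.

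**Figure D3:**
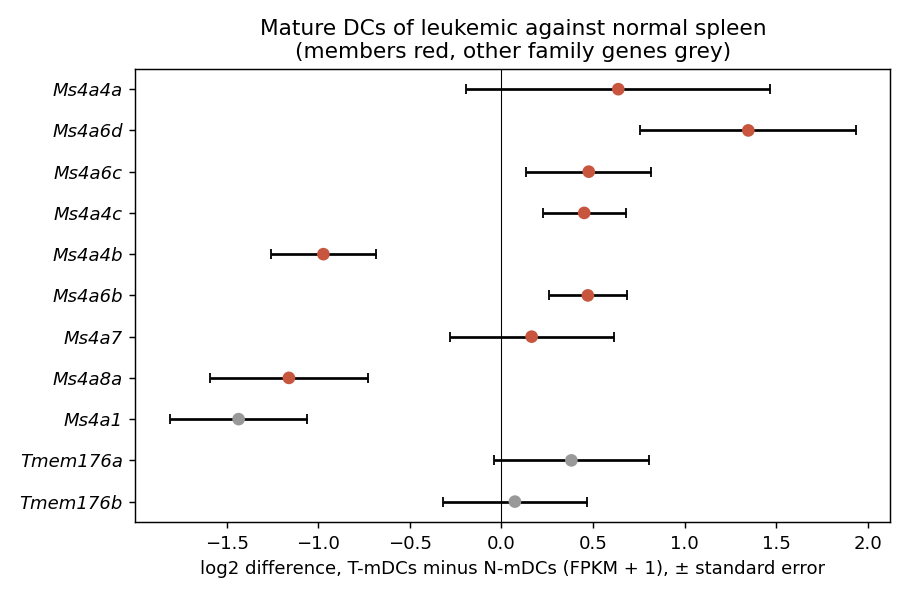
The log2 difference on the log2(FPKM + 1) scale of T-mDCs minus N-mDCs (x axis, with its SE as bars, 3 samples a group) for the 8 members (red) and 3 other genes of the family (grey). Estimates run from -1.43 for Ms4a1 to 1.35 for Ms4a6d, and none had an adjusted p under 0.05.

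The estimate for Ms4a4a between mature DCs rested on T-mDC 1. It was 0.64 ± 0.83 (limma adjusted p = 0.744) with all samples and -0.37 without T-mDC 1, whose 73.1 FPKM stood against 8.11 and 8.13 in the other T-mDCs. For Ms4a6d the same library carried 60.5 FPKM against 20.2 and 17.9, and the estimate without it was 0.81. Markers of several cell types were higher in this library. The summed FPKM of macrophage markers was 1762 in T-mDC 1 against 616 and 609 in T-mDC 2 and 3, that of monocyte markers was 939 against 510 and 504, and that of erythroid markers was 179 against 21.5 and 14.5. Ighm, the heavy chain of B cell IgM, was at 1700.02 FPKM against 306 and 309.5. Ace, a gene of nonclassical monocytes, was at 81.1 FPKM in T-mDC 1 against 5.06 and 4.65, and Cx3cr1, a chemokine receptor of the same cells, was at 27.1 against 4.49 and 4.19. The part of such cells in the Ms4a4a and Ms4a6d values was not tested.

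The same marker lists were set beside the members in T-DCs. Of 12 macrophage markers, 0 were called in either T-DC comparison with limma, and their summed FPKM was 3831, 1312 and 841 in T-DC 1 to 3, between 1908 and 3854 in N-mDCs and between 609 and 1762 in T-mDCs. Within T-DCs the macrophage sum had the same order of libraries as Ms4a4a. Of 11 monocyte markers, 2 fell in T-DCs against N-mDCs (Ccr2 and Plac8), and 3 were higher than in T-mDCs (Ace, Cx3cr1 and Cd14). The list had a median log2 difference of -0.59 against N-mDCs but 1.72 against T-mDCs. Ace was at 425, 175 and 157 FPKM in T-DCs and 19.4 to 48.2 in N-mDCs, with a log2 difference of 2.69 against N-mDCs that did not pass (limma adjusted p = 0.0871) and 4.01 against T-mDCs (limma adjusted p = 0.0280). Cx3cr1 was at 92.2, 50.1 and 34.4 FPKM in T-DCs and 8.72 to 16.5 in N-mDCs, with a log2 difference of 2.06 against N-mDCs (limma adjusted p = 0.0603) and 2.57 against T-mDCs (limma adjusted p = 0.0326). The calls of Ace, Cx3cr1 and Cd14 against T-mDCs were lost in 7, 10 and 10 of 18 alternatives, and that of Ccr2 against N-mDCs in 11. The part of monocytes or macrophages in the Ms4a4a level of T-DCs was not tested.

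The 3 other genes of the family that could be tested, Ms4a1, Tmem176a and Tmem176b, were lower in T-DCs. The table holds 11 more genes named Ms4a, of which only Ms4a1 was expressed highly enough to be tested, and the related Tmem176a and Tmem176b on chromosome 6, which encode intracellular proteins of the same fold known from DCs. Ms4a1 was at 21.2, 11.8 and 17.7 FPKM in N-mDCs, 0.713, 1.94 and 0.511 in T-DCs and 9.53, 3.72 and 4.42 in T-mDCs. The groups did not overlap, and its log2 difference was -3.15 ± 0.38 against N-mDCs (limma adjusted p = 0.00171) and -1.72 ± 0.38 against T-mDCs (limma adjusted p = 0.0204, lost in 5 of 18 alternatives). Of 7 tested B cell markers, 7 estimates were lower in T-DCs against N-mDCs, and 5 were called. Against T-mDCs, 6 estimates were lower and 1, Ighm, was higher, and only Pax5 was called. Pax5, a transcription factor of B cells, had a log2 difference of -2.42 against N-mDCs (limma adjusted p = 0.00626). Against T-mDCs it was -1.81 (limma adjusted p = 0.0208, lost in 5 of 18 alternatives). The part of B cells in the Ms4a1 values was not tested. Tmem176b was at 156, 105 and 107 FPKM in N-mDCs, 25.9, 28.6 and 8.81 in T-DCs and 129, 126 and 126 in T-mDCs. Its log2 difference was -2.62 ± 0.39 against N-mDCs (limma adjusted p = 0.00435) and -2.69 ± 0.39 against T-mDCs (limma adjusted p = 0.00414). Tmem176a was lower in the same way, at 2.83 to 11.9 FPKM in T-DCs against 43.4 to 70.0 in N-mDCs and 67.2 to 69.4 in T-mDCs.

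Ms4a3 was highest in T-DC 2 and 3. It held 0, 292 and 104 reads in T-DC 1 to 3, which is 0, 10.0 and 3.64 FPKM, and was at most 0.264 FPKM in the mature DC libraries. Markers of neutrophil progenitors followed the same libraries, with a summed FPKM of 0.823, 258 and 103 in T-DC 1 to 3, and their part in the Ms4a3 values was not tested. Ms4a3 is not among the tested genes. Ms4a2 reached 0.959 FPKM in N-mDC 3 and 0.609 in T-DC 3, Ms4a14 was at 0.243 to 1.29 FPKM in all libraries, and Ms4a4d reached 0.480 FPKM in T-DC 1. The remaining Ms4a genes did not exceed 0.217 FPKM in any library.

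Genes for receptors that partner the family were also followed. Of 9 genes for such receptors and the signalling molecules downstream of them, 8 were tested. T-DCs had lower levels of 3 than N-mDCs (Clec7a, Tnfrsf18 and Kit) and of 2 than T-mDCs (Tnfrsf18 and Kit), and 0 were higher in either comparison. Among all 12746 tested genes, the first comparison gave 778 higher and 1318 lower calls. The second gave 693 higher and 1120 lower. With only 8 genes tested, nothing is read from the lack of higher calls. The Kit call was lost in 3 of 18 alternatives in the first comparison and in 5 in the second. The Tnfrsf18 call was lost in 3 in the second. The median log2 difference of the list was -0.40 against N-mDCs but 0.24 against T-mDCs. Clec7a, the Dectin-1 gene, was at 168, 106 and 145 FPKM in N-mDCs, 33.5, 22.1 and 13.8 in T-DCs and 26.7, 32.05 and 30.3 in T-mDCs. It fell in T-DCs (log2 difference against N-mDCs -2.60, limma adjusted p = 0.00171) and in T-mDCs (-2.18, limma adjusted p = 0.0156), where the call was lost in 5 of 18 alternatives. Within T-DCs, Clec7a had the same order of libraries as Ms4a4a, an order that Itgax and Fcer1g had too. T-mDC 1, with Ms4a4a at 73.1 FPKM against 8.11 and 8.13 in T-mDC 2 and 3, had the lowest Clec7a of the T-mDCs. N-mDCs had the highest Clec7a, with Ms4a4a at 7.06 to 23.5 FPKM. How the levels of Clec7a and Ms4a4a relate was not tested. Tnfrsf18, the GITR gene, was at 5.71 to 9.21 FPKM in N-mDCs, against 0.605 to 1.69 in T-DCs with 2.95 to 6.42 in T-mDCs, with a log2 difference of -2.15 against N-mDCs (limma adjusted p = 0.00391). Kit, the stem cell factor receptor, had a log2 difference of -2.09 against N-mDCs (limma adjusted p = 0.0188). Fcer1g, the common gamma chain of Fc receptors, was at 1183, 755 and 409 FPKM in T-DCs, 292 to 579 in N-mDCs and 215 to 492 in T-mDCs, and its log2 differences of 0.86 and 1.30 did not pass the test. Syk and Card9, the kinase and adaptor of Dectin-1 signalling, did not pass in any comparison. Vsig4 was at 0.0376 to 2.04 FPKM in T-DCs, and Trem2 was too low to be tested, at most 0.668 FPKM.

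Genes of alternative activation, in which Ms4a4a and Ms4a8a are known in macrophages, moved in different directions. Of 7 tested genes, T-DCs had a higher level of Fkbp5 and lower levels of Retnla and Il4ra than N-mDCs, and a higher level of Chil3 and a lower level of Retnla than T-mDCs. The median log2 difference of the list was -1.09 against N-mDCs but 0.58 against T-mDCs. Fkbp5, a chaperone gene, was at 4.68, 5.08 and 5.46 FPKM in N-mDCs and 77.5, 31.0 and 24.1 in T-DCs. In T-mDCs it was at 37.4, 12.8 and 12.8 FPKM. Its log2 difference in T-DCs against N-mDCs was 2.72 (limma adjusted p = 0.00916). Tsc22d3 of the same list was at 219, 178 and 141 FPKM in N-mDCs and 148, 71.3 and 52.8 in T-DCs. In T-mDCs it was at 88.0 to 91.0 FPKM. Its log2 difference in T-DCs against N-mDCs was -1.09 and did not pass (limma adjusted p = 0.0646). Retnla, a secreted product of alternatively activated macrophages, was at 10.8 to 23.1 FPKM in N-mDCs and 0.108 to 0.770 in T-DCs (log2 difference -3.43, limma adjusted p = 0.00151). Chil3, a chitinase-like protein made by macrophages and neutrophils, was at 108, 528 and 240 FPKM in T-DCs. The neutrophil marker sums there were 13.4, 4235 and 1485. In N-mDCs, Chil3 was at 0.627, 22.1 and 68.1 FPKM, beside sums of 67.0, 420 and 712. The part of neutrophils in the Chil3 values was not tested. The call of Chil3 against T-mDCs was lost in 8 of 18 alternatives, and that of Retnla in 9. The scavenger receptors Mrc1 and Cd163 did not pass in any comparison, and Arg1 was too low to be tested. Between mature DCs, 0 of the 7 were called.

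Of 11 tested genes of the interferon response, 4 were lower in T-DCs against N-mDCs and 1 against T-mDCs, with 0 higher in either. Between mature DCs, 2 were lower in T-mDCs and 0 higher. The median log2 difference was -0.95 in T-DCs against N-mDCs and -1.33 in T-mDCs against N-mDCs, while Ms4a4c was highest in T-mDCs. Against T-mDCs the median in T-DCs was 0.43, with 8 of 11 estimates higher. The antiviral gene Rsad2 was at 3.84, 131 and 154 FPKM in T-DC 1 to 3, so the T-DC libraries differed widely. The lower call of Bst2 against N-mDCs was lost in 10 of 18 alternatives.

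Genes beside the family on chromosome 19 were set beside the members. Within 300 kb on either side of the members the table holds 60 genes, of which 23 were tested, and 14 of these were outside the family. Of those 14, 1 was called in T-DCs against N-mDCs and 0 in T-DCs against T-mDCs or between mature DCs. Over all tested genes, 16.4%, 14.2% and 2.21% were called in these comparisons, and nothing is read from the counts. The gene called was Tmem132a, which lies 518 kb before Ms4a4a and was lower in T-DCs (log2 difference -1.79, limma adjusted p = 0.00429). On the stretch from Ms4a4a to Ms4a6b the log2 difference between T-DCs and N-mDCs changed sign from 4.01 for Ms4a4a to -0.90 for Ms4a4c and -1.68 for Ms4a4b and back to 0.97 for Ms4a6c.

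**Figure D4:**
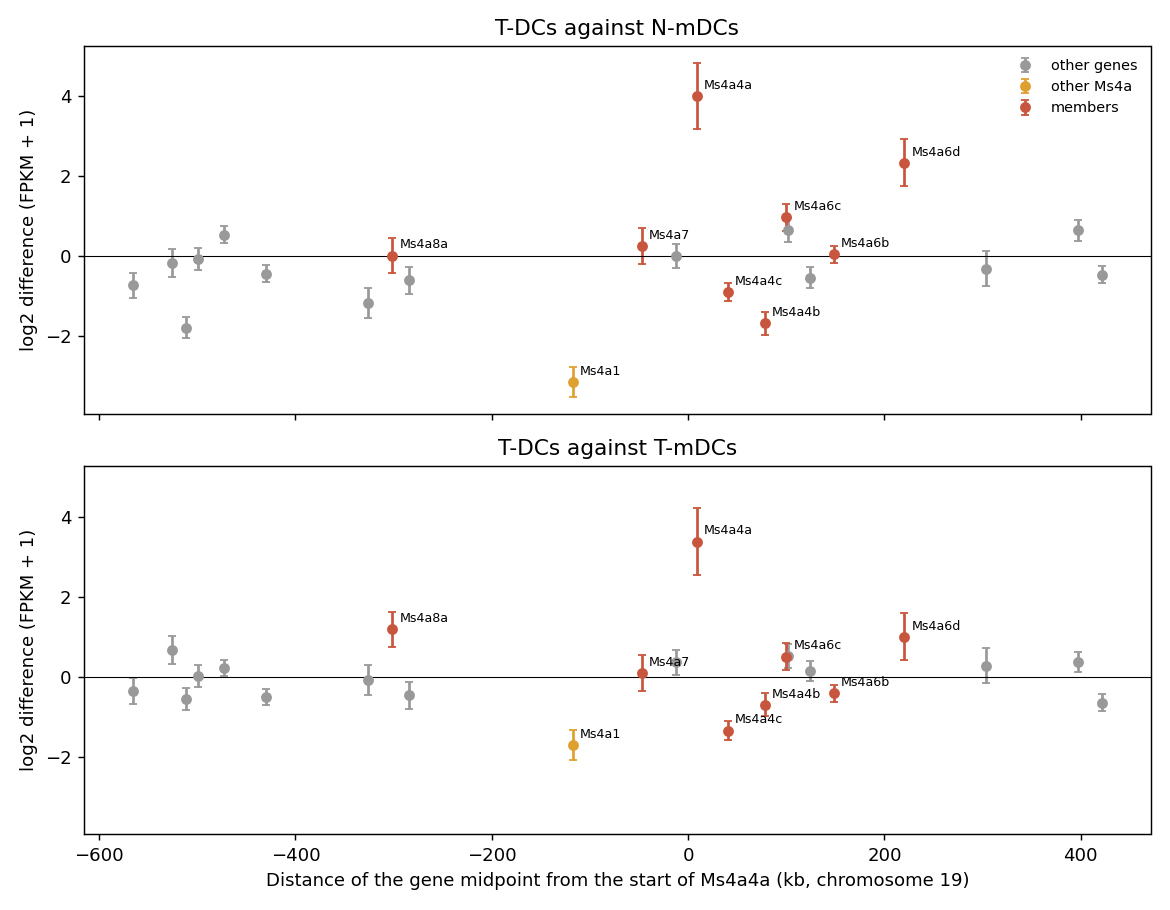
The log2 difference on the log2(FPKM + 1) scale (y axis, SE as bars) of T-DCs against N-mDCs (top) and against T-mDCs (bottom) for the 23 tested genes around the family, by distance of the gene midpoint from the start of Ms4a4a in kb. Ms4a4a (4.01 and 3.38) stands between Ms4a7 (0.25 and 0.08) and Ms4a4c (-0.90 and -1.35).

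Because the genes are related, reads can be hard to assign between them. No stretch of 50 bases of an Ms4a4a transcript occurred in a transcript of another family gene, and the same held for Ms4a7 and Ms4a8a. Such stretches made up 8.19% of Ms4a4c, 5.85% of Ms4a6c, 3.44% of Ms4a6b, 2.31% of Ms4a6d and 2.24% of Ms4a4b. The longest shared runs were 127 bases between Ms4a4c and Ms4a4b and 96 bases between Ms4a6c and Ms4a6b. Values of these 5 genes are uncertain to the extent that the counting could split such reads. The genes BE692007, on the other strand of Ms4a6c, Gm5692 on Ms4a4c and Gm19261 on Ms4a6b overlap members, and use of strand in the counting is not given in the sources used here.

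Over the 9 samples, some of the members varied together. On log2(FPKM + 1), Pearson's r was 0.88 between Ms4a4a and Ms4a6d, 0.87 between Ms4a6c and Ms4a6d and 0.83 between Ms4a4a and Ms4a6c. It was -0.72 between Ms4a4a and Ms4a4c, and at most 0.43 between Ms4a7 and any other member. These are descriptions over 9 samples that share the 3 groups, the same libraries and the high T-mDC 1. Outside the family, the 5 tested genes most like Ms4a4a by r were Cd300ld4 (0.989), Rnf144a (0.986), Gm15931 (0.985), Gsr (0.984) and Irak3 (0.984), with Spearman's rho of 0.833 to 0.883. After leaving out T-DC 1 and 2, the samples farthest from the median of Ms4a4a, r was 0.968 to 0.991. Irak3, an inhibitor of Toll-like receptor signalling, was at 2.11, 2.94 and 3.76 FPKM in N-mDCs, 26.6, 21.4 and 11.1 in T-DCs and 9.86, 1.999 and 1.64 in T-mDCs. Gsr, glutathione reductase, was at 40.6 to 64.9 FPKM in N-mDCs, 247, 141 and 115 in T-DCs and 101, 38.8 and 38.1 in T-mDCs. Cd300ld4, of the CD300 receptor family of myeloid cells, was at 0.300 to 0.970 FPKM in N-mDCs and 10.9, 6.74 and 3.56 in T-DCs. All shared the order of T-DC 1, 2 and 3 and the raised T-mDC 1.

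**Figure D5:**
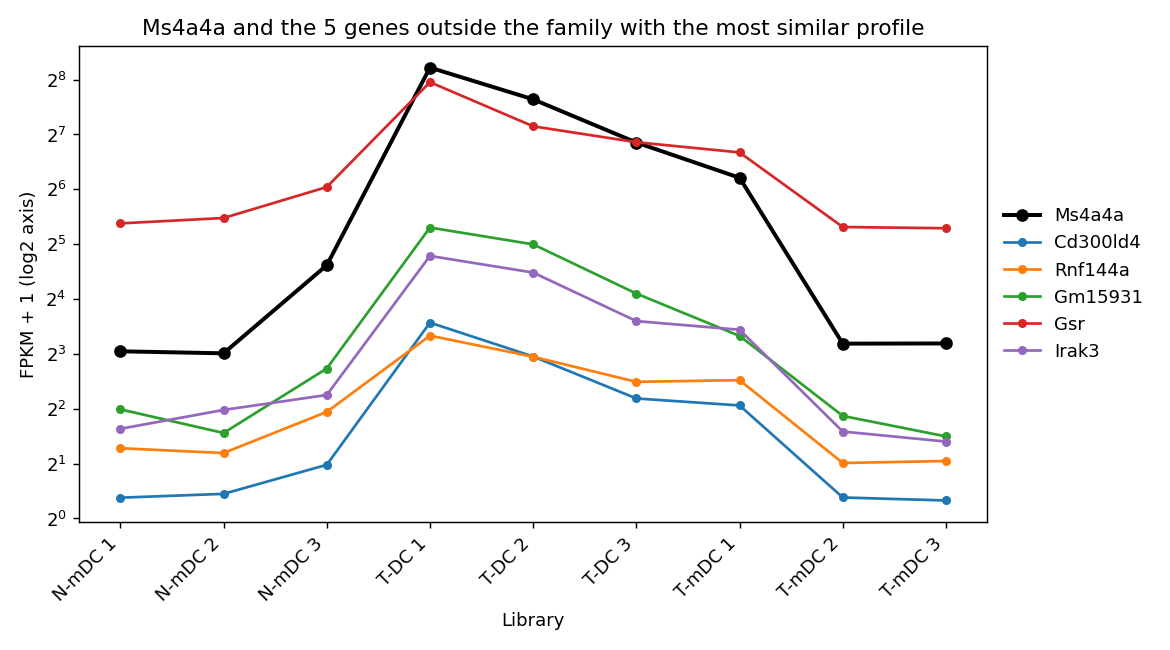
FPKM + 1 (log2 axis) of Ms4a4a and the 5 genes outside the family with the highest Pearson r to it, by library. The 6 lines are highest in T-DC 1 and have a second shoulder in T-mDC 1, where Ms4a4a is at 73.1 FPKM.

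The other members had different companions. Ms4a6d was most like Adpgk (r 0.950), the cathepsin gene Ctsk (0.936) and the lysosomal chloride transporter gene Clcn7 (0.930). Ms4a8a was most like the transcription factor gene Cebpd (0.984), and Ms4a7 like Dhrs1 (0.975). Ms4a4c was most like Il9r (0.977), the T cell and DC transcription factor gene Tcf7 (0.973) and the costimulatory receptor gene Tnfrsf9 (0.961), all lowest in T-DC 1 and 3. Ms4a4b was most like A530032D15Rik (0.972), the interleukin-27 receptor gene Il27ra (0.969) and H2-Q10 (0.968). Ms4a6c was most like Ugt1a7c (0.972), and Ms4a6b was most like the desaturase gene Scd2 (0.946). These correlations are over the same 9 samples and carry no test.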

How the data were processed

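Total RNA of 9 sorted samples was sequenced on standard Illumina libraries. The authors deposited FPKM for 54532 genes with coordinates and lengths (mm10 per the labels). The aligner, the counter and the strand setting are not given in the sources used here. FPKM multiplied by length gave whole reads for 100% of values within 0.01 of a read. Genes below 1 FPKM in more than 6 of 9 samples were left out, which left 12746, and log2(FPKM + 1) was fitted over all 3 groups in R 4.3.3 by limma 3.58.1 (a linear model with contrasts and a trended empirical Bayes variance), with Benjamini-Hochberg adjustment over all 12746 genes and a threshold of 0.05. Because 1 was added, differences of low genes are understated. The members, the gene lists and the tests were chosen with earlier results of these data known, so T-DC comparisons of members carry no test. Named genes are all members, the other genes of the family, the listed genes, the genes within 300 kb, and the 5 (Ms4a4a) or 3 (other members) genes of highest r. Same-numbered samples did not deviate together, and no pairing was used. Single-cell data were not analysed here.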

Additional observations from a re-analysis of the deposited data

How the results depend on the processing

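Leaving all else as it was, 18 alternatives were run, and 17 for Ms4a4b and Ms4a8a, which a stricter filter (FPKM of at least 5) removed. In T-mDCs against N-mDCs, 0 members were called in every alternative, and Ms4a4a ran from -0.37 to 1.17 on the log2 scale. The median of the members was -0.12 to 0.61 in T-DCs against N-mDCs and -0.10 to 0.63 against T-mDCs, negative without T-DC 1 in both and under TPM (-0.02) in the second. Ms4a4a kept its direction in 18 of 18 in both T-DC comparisons (3.69 to 4.54 and 2.87 to 4.38), as did Ms4a4c and Ms4a6d. TPM scaling moved the median of all genes from 0.03 to 0.23 in T-mDCs against N-mDCs and from 0.07 to -0.23 in T-DCs against T-mDCs, with 49 higher and 50 lower calls instead of 88 and 194, and 376 and 1339 instead of 693 and 1120. Counts over all genes depended on the setting, and the cause was not tested. In T-mDCs against N-mDCs, 282 genes became 107 with a pseudocount of 0.1, 111 with the stricter filter, 99 under TPM, 850 with only the groups compared, 179 with voom, 23 with the mean of T-mDC 2 and 3 as 1 sample, and 23 to 1022 when leaving out each replicate. In T-DCs against N-mDCs, 2096 became 1070 with only the groups compared, 1394 with that mean, and 980 to 5030 when leaving out each replicate. In T-DCs against T-mDCs, 1813 became 1190 with the stricter filter, 1036 with only the groups compared, 540 with that mean, and 541 to 4475 when leaving out each replicate. The highest of each range was without T-DC 1. A replicate block gave 78, 1378 and 1253 genes in these 3 comparisons, with 0 members in the first, and correlations of same-numbered deviations were -0.47 to 0.27, so the numbers were not taken to pair the samples.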
